A study of Mus musculus with 11 samples.

Results

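Dorsal pallium identity and arealization factors are transcription factors that set up the dorsal telencephalon as future cortex and give it positional identity along its axes. The 9 genes described here, Emx1, Emx2, Lhx2, Nr2f1, Nr2f2, Sp8, Dmrta2, Dmrt3 and Tfap2c, were taken by gene symbol from RNA-seq tables that list 20475 rows each, and each symbol stood in both tables once. The tables hold forebrain tissue (the study's text says cortical cells) of mouse embryos at embryonic day 12.5 (E12.5), wild type or lacking Kif20a, a mitotic kinesin that acts at the cleavage site of dividing cells. In the germline comparison, 3 wild-type libraries stood against 3 knockout libraries from knockout-first mice, in which a cassette (LacZ and neo) disrupts Kif20a in all cells. That line came from a single targeted embryonic stem cell clone, crossed with C57BL/6J. In the inducible comparison, 2 libraries labelled as wild-type controls stood against 3 knockout libraries. There the cassette had been removed, leaving a floxed allele, and Nestin-CreERT2, a Cre recombinase made in Nestin-expressing neural progenitors and switched on by tamoxifen, deleted Kif20a, with tamoxifen given at E9.5 and E10.5. The study's text describes the controls of its inducible experiments as Kif20a fl/fl littermates without Cre, whereas the RNA samples are labelled wild type only, so the controls may carry the floxed allele. The study describes the animals of each comparison as littermates, without saying which library came from which litter. It gave tamoxifen to the pregnant mice, so littermate controls of the inducible comparison would have been exposed to it as well. No tamoxifen is described for the germline comparison. Cells of lineages in which this Cre was not active after tamoxifen keep Kif20a in the inducible model. The values are normalized read counts, made comparable between the libraries of a table by the trimmed mean of M-values, so levels were compared within a table only.

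The cortex arises from a sheet of progenitors whose fate is set by signalling centers at its edges, among them the anterior source of FGF and the cortical hem, a medial source of Wnt and BMP. Lhx2 acts as a selector of cortical fate and keeps progenitors from becoming hem, and Emx1 and Emx2 mark the dorsal progenitors. Position along the sheet is encoded in gradients: Emx2 and Dmrta2 are high caudally and medially and favor caudal areas, Sp8 is high anteriorly and medially and favors frontal areas, and the nuclear receptors Nr2f1 and Nr2f2, also called COUP-TFI and COUP-TFII, are high caudally. Dmrt3, a paralog of Dmrta2, is expressed medially, and Tfap2c acts in progenitors that give rise to basal progenitors.

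Kif20a itself was read first, as a check of the labels. It stood at 2456, 2295 and 2680 normalized counts in germline wild types and at 409, 374 and 503 in the germline knockouts. In the inducible table it stood at 4760 and 4844 in wild types and at 3125, 2915 and 2853 in knockouts. The groups did not overlap in either table, and the reduction was partial in the inducible knockouts. Of the 3893 exon bases of Kif20a, 1259 are shared with Cdc23 on the opposite strand, so the counts left in the knockouts may include reads of that gene. The study's supplement places the signal left in the germline knockouts in the first exons of Kif20a. For the inducible knockouts it offers varied Cre expression as a possible reason. The source of the remaining counts was not tested here. In the inducible table, 106 rows, Kif20a among them, are written to 2 decimals while the rest carry more, and 104 of these stand at another position than in the germline table. The study's supplement lists Kif20a, Rspo1, Rspo2, Wnt8b, Clic6, Fgf15, Eif2s3y, Kdm5d and Syt4 among the genes it called in the inducible knockouts. All of them are among these rows, and the study's lower and higher inducible calls together come to the same number. The rows may thus be the study's own calls, which was not tested. None of the 9 factors is among these rows (0 of 106). The labelled tissue was checked against its markers. Markers of the ventral telencephalon were present, with Dlx1 at 955 or more in every library of both tables, so the tissue was not dorsal pallium alone.

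Library totals lay between 13048716 and 15551274 normalized counts in the germline and between 24118520 and 24497307 in the inducible table. A principal component holding 58.0% of the variance of the germline table put knockout replicate 2 at 91.2 and the other libraries between -38.4 and 3.84. Germline knockout replicate 2 therefore stood apart from every other library of its table, and the germline fold changes of the 9 factors and the calls of the gene lists are given below with and without it. The inducible libraries were more alike: the median SD of log2 values over all genes tested was 0.08 among the wild-type and 0.09 among the knockout libraries, against 0.18 and 0.31 in the germline table. For the 9 factors these medians were 0.17 and 0.24 in the inducible and 0.26 and 0.42 in the germline table, so in all 4 groups the typical factor varied more between replicates than the typical gene.

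Levels of different genes were compared per kilobase of exon, using gene models of mm9, the build of the tables, for the 8 factors found. Tfap2c, which has a row in both tables, was not found in the gene models used here. In the germline wild-type libraries Lhx2 was highest, at 1622 ± 113 normalized counts per kilobase (SD, n = 3), and its lowest library lay above every library of the next gene. Emx2 at 607 ± 140, Nr2f1 at 600.3 ± 93.5, Nr2f2 at 554 ± 209 and Dmrta2 at 364 ± 47.3 followed, and the libraries of each overlapped those of its neighbor. Emx1 came next at 269 ± 50.9 and overlapped Dmrta2, and Dmrt3 at 166 ± 28.9 and Sp8 at 94.6 ± 16.1 lay lowest and apart from their neighbors. In the inducible wild-type libraries the order was Lhx2 (3302 ± 283, SD, n = 2), Emx2 (1528 ± 229), Nr2f1 (1014 ± 118), Nr2f2 (864 ± 27.1), Dmrta2 (752 ± 91.3), Emx1 (532 ± 48.0), Dmrt3 (426 ± 50.8) and Sp8 (244 ± 24.3), with no overlap between neighbors in 2 libraries. In the germline knockouts the libraries of each neighboring pair overlapped except Dmrt3 and Sp8, with Lhx2 at 1382 ± 601 and Nr2f2 second at 819 ± 155 (SD, n = 3). In the inducible knockouts Emx2 (1200 ± 204) overlapped Nr2f1 (1080 ± 149), Nr2f1 overlapped Nr2f2 (859 ± 199), and Dmrta2 (567 ± 77.2) overlapped Emx1 (469 ± 107), which overlapped Dmrt3 (307 ± 65.5). Nr2f1 shares a short stretch of exon bases with genes on the opposite strand, and whether reads were counted by strand is not given in the sources used here.

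**Figure D1:**
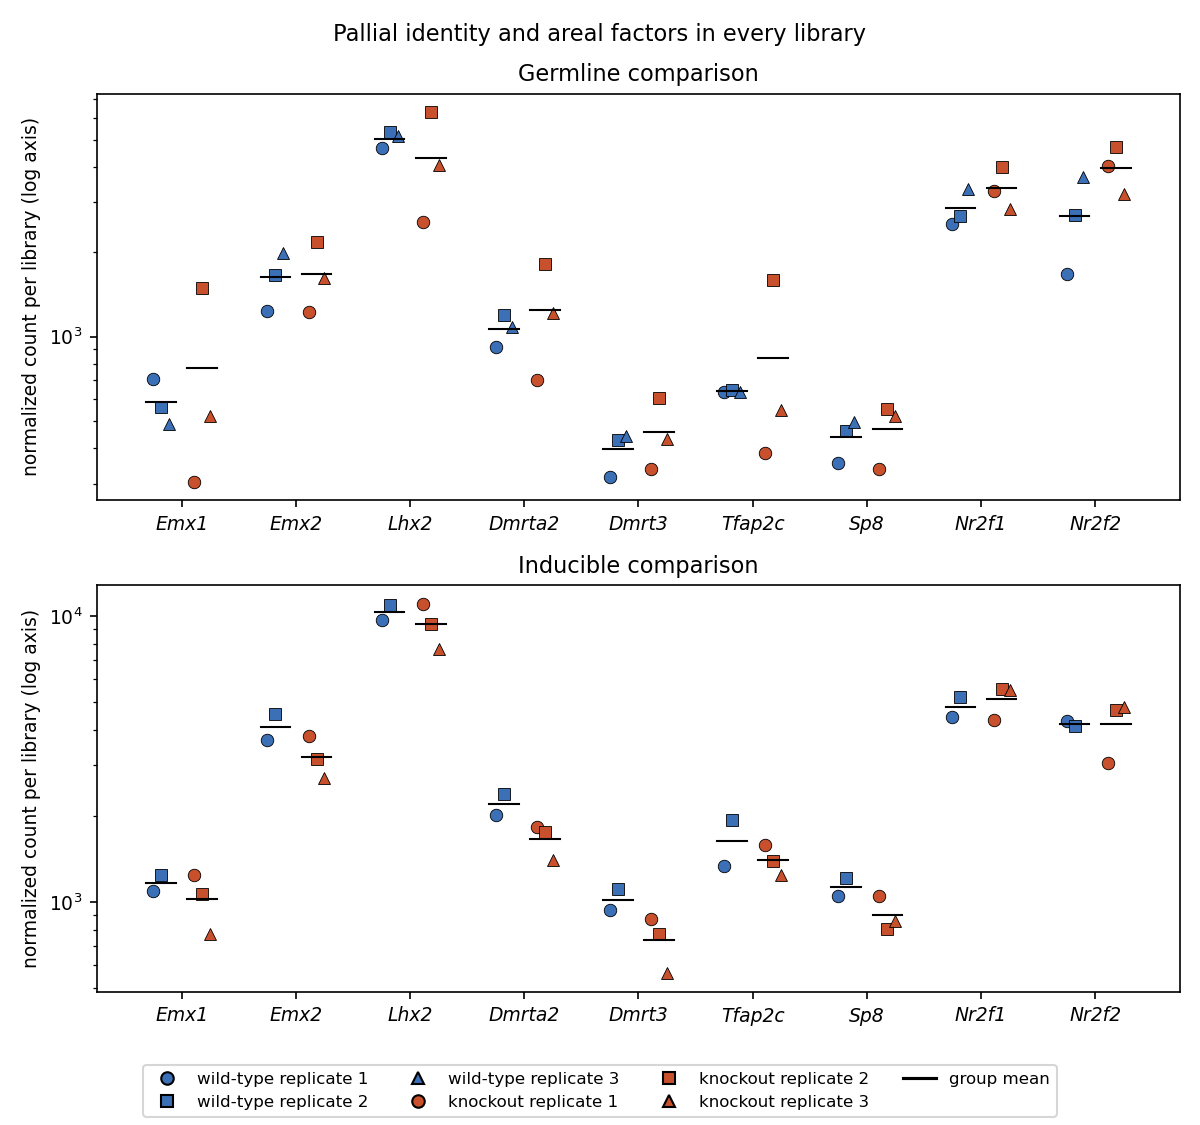
Normalized counts per library of each of the 9 factors (log axis), germline comparison above and inducible below; blue marks wild-type and red knockout libraries, shapes give the replicate number and bars the group mean. Germline knockout replicate 2 (red square) is the highest germline library for all 9 genes, and in the inducible panel Dmrta2, Dmrt3 and Sp8 lie lower in every knockout than in either wild-type library.

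None of the 9 factors passed the thresholds of the study, a fold change of at least 1.5 with an unadjusted P of at most 0.05, in either comparison (limma, two-sided, on log2(normalized count + 1)). Over all genes tested, 2.74% passed in the germline comparison (382 of 13938, of which 93 were lower and 289 higher) and 1.29% in the inducible comparison (182 of 14081, 69 lower and 113 higher). The germline split depended on the fit. Without knockout replicate 2 more genes were lower (642) than higher (587), while with limma array weights more were still higher (560) than lower (484). Of the inducible calls 83 came from the 106 rows written to 2 decimals and 99 from all others, of which they were 0.708%. If those 106 rows are the study's own calls, that most of them passed here follows from how they were picked. At a Benjamini-Hochberg adjusted p under 0.05, 0 of 9 factors passed in either comparison, against 0.00717% of all genes (germline, 1 gene) and 0.0355% (inducible, 5 genes). At an unadjusted P of at most 0.05 alone, 0 of 9 factors passed in the germline comparison, where 5.39% of all genes did. In the inducible comparison 4 of 9 did, all lower in the knockouts, where 3.03% of all genes were lower at that P. The median log2 fold change of the 9 factors was 0.13 (germline) and -0.21 (inducible), beside -0.04 and -0.00191 over all genes tested. With bulk tissue, fewer cells expressing a factor and less of its RNA per cell cannot be told apart.

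**Figure D2:**
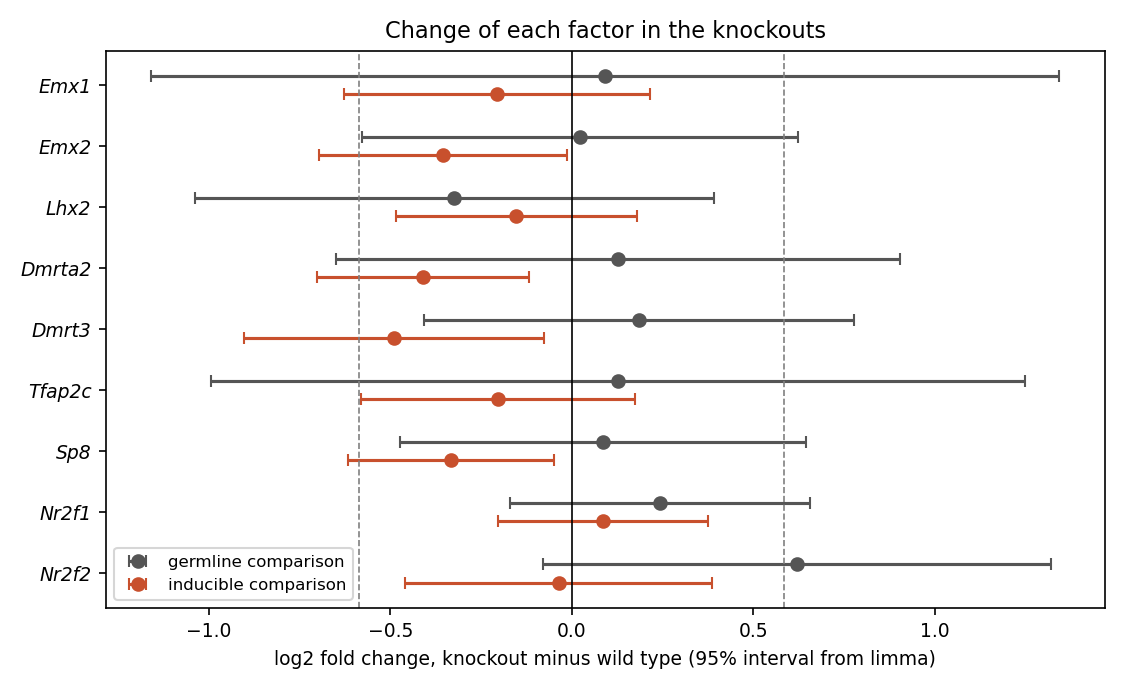
Log2 fold change (knockout minus wild type) of each factor with its 95% interval from limma, germline in grey and inducible in red; dashed lines mark a fold of 1.5. The germline intervals all include 0, and the inducible intervals of Emx2, Dmrta2, Dmrt3 and Sp8 lie below 0, with Dmrt3 lowest at -0.49.

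In the inducible knockouts 3 factors of the caudal and medial pallium, Dmrta2, Dmrt3 and Emx2, and the anterior factor Sp8 had lower mean values than in wild types, none of them past the thresholds of the study or the adjusted one. Dmrta2 stood at 2008 and 2386 normalized counts in wild types and at 1821, 1753 and 1400.3 in the knockouts. Every knockout library was below both wild-type libraries, with replicate 3 lowest. The log2 fold change was -0.41 (SE 0.12, 95% interval -0.70 to -0.12), with an unadjusted limma P of 0.0126 and an adjusted p of 0.798. Its exact permutation p was 0.1, the smallest that 2 against 3 libraries allow. Dmrt3 stood at 933 and 1105 in wild types and at 868, 772 and 562 in knockouts. Again the groups did not overlap and knockout replicate 3 was lowest. Its log2 fold change was -0.49 (SE 0.18, interval -0.90 to -0.08), with an unadjusted limma P of 0.0261 and an adjusted p of 0.825, and the exact permutation p was 0.2.

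Emx2, the dorsal homeobox gene with a caudal and medial gradient, stood at 3668 and 4536 in wild types and at 3799, 3153 and 2708 in knockouts. Knockout replicate 1 lay between the wild-type libraries and the others below both. The log2 fold change was -0.35 (SE 0.15, interval -0.70 to -0.01), with an unadjusted limma P of 0.0431, an adjusted p of 0.825 and an exact permutation p of 0.3. Sp8, the factor of the anterior and medial pallium, stood at 1051 and 1210.2 in wild types and at 1045, 803 and 857 in knockouts. All knockouts were lower, though replicate 1 lay close under the first wild-type library. The log2 fold change was -0.33 (SE 0.12, interval -0.62 to -0.05), with an unadjusted limma P of 0.0276, an adjusted p of 0.825 and an exact permutation p of 0.2. Groups without overlap, lower in the knockout, thus held for 3 of 9 factors, beside 12.2% of all genes tested. Wild-type replicate 2 was the highest library for each of these 4 genes. Without it the log2 fold changes were -0.29 for Dmrta2, -0.37 for Dmrt3, -0.20 for Emx2 and -0.23 for Sp8, with unadjusted limma P of 0.101, 0.152, 0.279 and 0.175. Without knockout replicate 3, Dmrta2 (-0.29, limma P 0.0145) and Dmrt3 (-0.31, limma P 0.0228) were still under a P of 0.05. Emx2 (-0.24, limma P 0.0959) and Sp8 (-0.30, limma P 0.0615) were not. Without knockout replicate 2, Emx2 (-0.35, limma P 0.0973) and Sp8 (-0.25, limma P 0.0889) were again above it. Dmrt3 passed both thresholds without wild-type replicate 1 (-0.61, limma P 0.0321) and without knockout replicate 1 (-0.62, limma P 0.00844).

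Since these genes were low in the same libraries, the 250 bases before the transcription start are shown for Emx2, Dmrta2 and Dmrt3, which have a single entry each (RefSeq, GRCm38.p6, plus strand). In mm9 the genes lie at chr19:59533180-59539847 (Emx2), chr4:109650658-109656292 (Dmrta2) and chr19:25685027-25698410 (Dmrt3), all on the plus strand, with 4, 3 and 2 exon blocks. The windows are chr19:59458440-59458689, chr4:109977775-109978024 and chr19:25610287-25610536 of GRCm38.p6, and capitals mark CCAAT, or ATTGG where it reads on the opposite strand.
Emx2: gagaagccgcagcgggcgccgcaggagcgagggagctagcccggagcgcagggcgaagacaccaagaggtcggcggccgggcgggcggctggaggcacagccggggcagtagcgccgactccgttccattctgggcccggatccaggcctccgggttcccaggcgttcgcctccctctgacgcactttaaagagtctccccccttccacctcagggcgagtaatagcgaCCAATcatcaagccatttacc
Dmrta2: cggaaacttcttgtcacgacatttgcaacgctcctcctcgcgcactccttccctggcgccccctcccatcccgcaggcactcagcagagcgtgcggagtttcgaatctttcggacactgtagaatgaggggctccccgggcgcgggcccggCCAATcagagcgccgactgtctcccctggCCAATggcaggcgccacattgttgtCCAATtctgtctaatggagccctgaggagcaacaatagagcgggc
Dmrt3: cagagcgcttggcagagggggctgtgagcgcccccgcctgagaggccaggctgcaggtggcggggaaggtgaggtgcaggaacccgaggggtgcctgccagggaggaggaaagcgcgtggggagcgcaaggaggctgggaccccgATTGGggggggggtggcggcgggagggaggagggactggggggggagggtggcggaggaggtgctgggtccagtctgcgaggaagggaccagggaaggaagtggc
CCAAT was found 3 times for Dmrta2 and once each for Emx2 and Dmrt3, on the opposite strand for Dmrt3. It was found 2 times for Nr2f2, once on the opposite strand, and 0 times for Emx1, Lhx2 and Nr2f1, while 33.8% of all promoters of this length hold it on either strand (11120 of 32851). Of the 3 Sp8 entries, 2 held it. The letters TAATTA (4.84% of promoters) and AGGTCA (14.0%) occurred in none of the 3 windows shown, and GGGCGG (32.7%) occurred at 2 positions in that of Emx2. Promoter entries were found for 8 of the 9 factors. A match describes the letters only.

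The other inducible values moved less. Lhx2, the cortical selector, stood at 9671 and 10917 in wild types and at 11031, 9385 and 7635 in knockouts (log2 fold change -0.15, interval -0.48 to 0.18). Emx1, at 1089 and 1237 against 1238, 1064 and 774, gave -0.21 (interval -0.63 to 0.22). Tfap2c, at 1336 and 1929 against 1585, 1384 and 1238, gave -0.20 (interval -0.58 to 0.18). For these 3 genes the groups overlapped, and knockout replicate 3 was the lowest library. It was the lowest library for 6 of the 9 factors, beside 23.2% of all genes. Nr2f1 stood at 4421 and 5216 in wild types and at 4317, 5563 and 5523 in the knockouts, and Nr2f2 at 4293 and 4107 against 3060, 4691 and 4781. For both nuclear receptors knockout replicate 1 was lowest and replicates 2 and 3 highest, with log2 fold changes of 0.09 (interval -0.20 to 0.38) and -0.04 (interval -0.46 to 0.39). Without knockout replicate 1, Nr2f2 turned to 0.17 (limma P 0.0155), Nr2f1 was at 0.21 (limma P 0.0466) and Lhx2 at -0.28 (limma P 0.0424). Without knockout replicate 3, Lhx2 was at -0.01 and Emx1 at -0.02. Without wild-type replicate 1, Tfap2c was at -0.47 (limma P 0.0119), and without wild-type replicate 2 at 0.06.

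**Figure D3:**
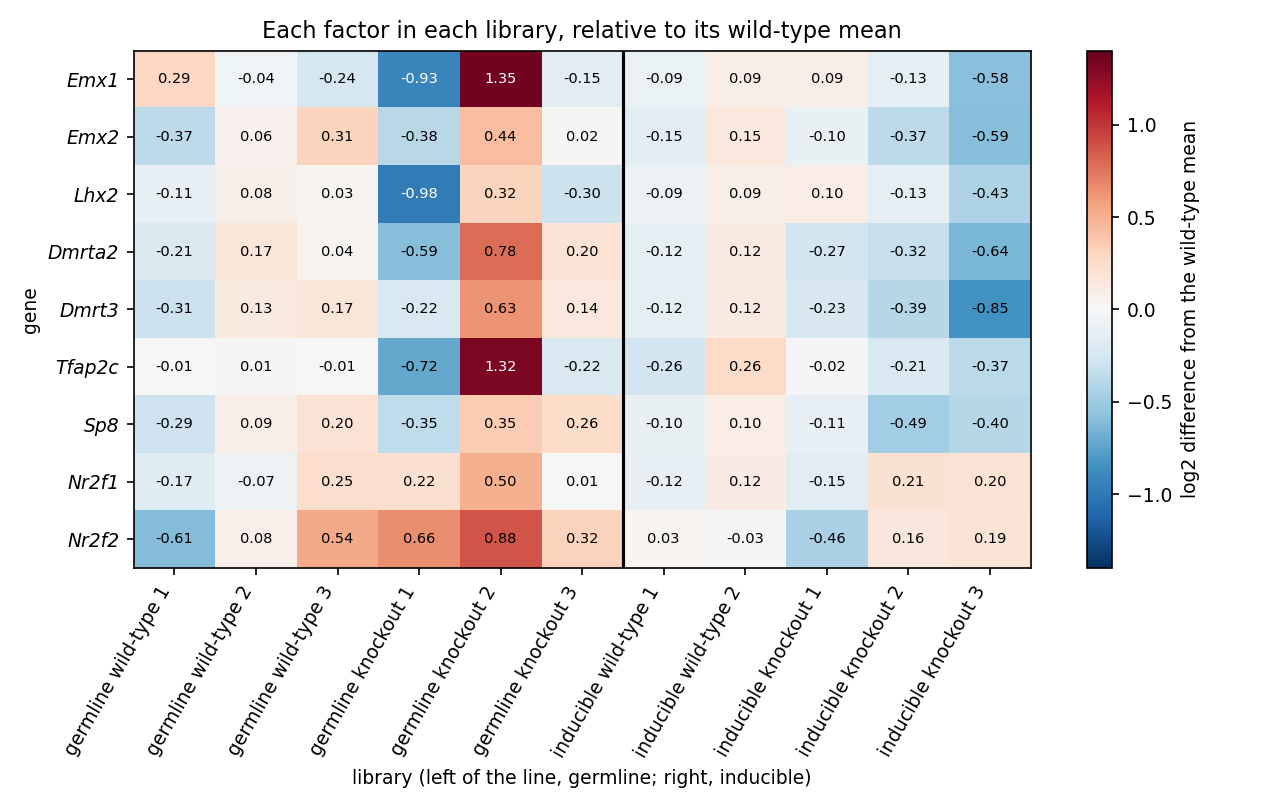
Log2 difference of each factor from the mean of its wild-type libraries in all 11 libraries; red is higher and blue lower. Germline knockout replicate 2 is above the wild-type mean for all 9 genes, and inducible knockout replicate 3 is below it for the 7 genes other than Nr2f1 and Nr2f2.

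Markers of neighboring tissue moved in the same inducible libraries. All 14 genes of the cortical hem and choroid plexus list had a negative log2 fold change (median -0.53), beside 50.8% of all genes, though they vary together across libraries. Past both thresholds were 3, beside 1.29% of all genes: Rspo1, a secreted enhancer of Wnt signalling (1592 and 1956 against 1196, 1265 and 639), the BMP target Msx2 (154 and 231 against 117, 105 and 56.8) and Clic6, of choroid plexus epithelium (1035 and 1272 against 1012, 704 and 592). The list summed to 11766 and 13997 normalized counts in wild types and to 11118, 10136 and 6202 in knockouts, and its most abundant gene, the thyroxine carrier Ttr, to 2144 and 2430 against 2374, 1839 and 1025. The hem markers Lmx1a (462 and 633 against 451, 430 and 258) and Wnt3a (326 and 439 against 288, 310 and 158) were present in every library. The rows of Rspo1, Msx2, Clic6 and Wnt3a are among those written to 2 decimals. The ventral telencephalon list, with 0 of 17 genes past the thresholds, summed to 20027 and 11897 in wild types and to 12370, 14975 and 23775 in the knockouts. Dlx1, its most abundant gene, stood at 3381 and 1943 against 2069, 2422 and 4364, and Nkx2-1, which marks the medial ganglionic eminence and preoptic area, at 1902 and 79.0 against 372, 653 and 1911. The library in which Emx2, Dmrta2 and Dmrt3 were lowest had the lowest hem and the highest ventral sum. The library in which they were highest had the highest hem and the lowest ventral sum. Over all inducible libraries the hem sums had the same order as Dmrta2 and Dmrt3. The ventral sums did not run in the opposite order. Wild-type replicate 1 had a ventral sum of 20027, above the 12370 and 14975 of knockout replicates 1 and 2. Its Dmrta2 (2008) and Dmrt3 (933) were also above theirs. The summed levels of the other tissue lists varied less between the inducible libraries. Cranial mesenchyme, with 0 of 13 tested genes past the thresholds, summed to 20084 and 12618 in wild types and to 15077, 17515 and 17605 in knockouts. Neurons summed to 85438 and 69846 against 75314, 80096 and 92234, with 1 of 16 genes past the thresholds (Syt4, of synaptic vesicles, higher, a row written to 2 decimals). Endothelium (0 of 10) summed to 5872 and 4372 against 4596, 5257 and 6496. Of 8 tested genes of the diencephalon list, 2 were higher, Olig3 (9.88 and 3.29 against 109, 175 and 8.45, also written to 2 decimals) and Wnt3, and the list summed to 1839 and 1444 against 1761, 2168 and 1693. Surface ectoderm, with 1 of 5 tested genes lower (Krt8, written to 2 decimals) and Krt5, Krt14, Krt15 and Trp63 at or under 3 in every library, summed to 364 and 431 against 273, 346 and 278. Of the hypoxia and glycolysis list, 1 of 18 genes passed (Ndrg1, higher), and the sums were 47824 and 62195 against 47727, 46123 and 56040.2. The part of tissue composition in the lower values was not tested. Y-linked genes summed to 2.00 and 4.20 in inducible wild types and to 3209, 2389 and 3101 in knockouts, so in this comparison the sex of the embryos and the genotype cannot be told apart. The inducible rows of these Y-linked genes (Kdm5d, Eif2s3y, Uty and Ddx3y) are also among those written to 2 decimals.

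In the germline comparison the factors of pallial fate had no common direction among the knockouts. Emx1 stood at 708, 563 and 489 in wild types and at 305, 1483 and 522 in the knockouts. Knockout replicate 1 was the lowest and replicate 2 the highest of all 6 libraries, a 4.87-fold range within the knockouts beside 1.45-fold within the wild types. The log2 fold change was 0.09 (SE 0.53, interval -1.16 to 1.34). Tfap2c was nearly constant in the wild-type libraries, at 635, 644 and 635, and stood at 387, 1592 and 549 in the knockouts. Again replicate 2 was above and the other knockouts below all wild types (log2 fold change 0.13, interval -0.99 to 1.25). Lhx2 stood at 4662, 5337 and 5167 in wild types and at 2557, 6285 and 4085 in knockouts, with knockout replicates 1 and 3 below every wild-type library. Its log2 fold change was -0.32 (SE 0.30, interval -1.04 to 0.39).

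All 9 factors had their highest germline value in knockout replicate 2, which held the highest value for 33.8% of all genes tested. Without this library Lhx2 passed both thresholds (-0.64, limma P 0.00939), 1 of 9 factors beside 8.77% of all genes (1229 of 14008). Tfap2c then had a log2 fold change of -0.47 (limma P 0.0247) and Emx1 of -0.54 (limma P 0.0619), Nr2f1 was at 0.11 and Nr2f2 at 0.49 (limma P 0.127). Emx2 was at -0.18, Dmrta2 at -0.20, Dmrt3 at -0.04 and Sp8 at -0.05, so 6 of the 9 factors, all but Lhx2, Nr2f1 and Nr2f2, reversed in sign. Without knockout replicate 1, Lhx2 was at 0.01, and under limma array weights it passed both thresholds at -0.68 (limma P 0.00901). Knockout replicate 3 alone was also set against the wild types, an alternative chosen after seeing the data. Emx1 was then at -0.15, Tfap2c at -0.22 and Lhx2 at -0.30. The other 6 were positive, with Nr2f2 at 0.32, Sp8 at 0.26, Dmrta2 at 0.20, Dmrt3 at 0.14, Emx2 at 0.02 and Nr2f1 at 0.01. In that fit the lone library is assumed to vary like the wild types.

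Emx2, Dmrta2, Dmrt3 and Sp8 gave germline differences smaller than the spread of their replicates. Emx2 stood at 1236, 1660 and 1987 in wild types and at 1225, 2163 and 1615 in knockouts (log2 fold change 0.02, interval -0.58 to 0.62). Dmrta2, at 915, 1189 and 1084 against 699, 1818 and 1212, gave 0.13 (interval -0.65 to 0.90), and Dmrt3, at 317, 430 and 442 against 338, 607 and 434, gave 0.19 (interval -0.41 to 0.78). Sp8 was at 354, 463 and 497 against 339, 553 and 520, a log2 fold change of 0.09 (interval -0.47 to 0.64). Germline groups without overlap were found for 0 of the 9 factors, beside 13.5% of all genes tested. Their signs were not stable: without knockout replicate 2, and under limma array weights, which give less weight to outlying libraries, Emx1, Emx2, Sp8, Dmrta2, Dmrt3 and Tfap2c were all negative.

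Nr2f2 had the largest germline log2 fold change of the 9. It stood at 1674, 2695 and 3706 in wild types and at 4030, 4711 and 3202 in the knockouts. Knockout replicates 1 and 2 were above all wild types, while replicate 3 lay below wild-type replicate 3. The log2 fold change was 0.62 (SE 0.30, interval -0.08 to 1.32), with an unadjusted limma P of 0.0740 and an adjusted p of 0.779. The wild-type libraries alone spanned a 2.21-fold range. Without wild-type replicate 3 Nr2f2 passed both thresholds (0.89, limma P 0.0155), and without wild-type replicate 1 its log2 fold change was 0.32. Its paralog Nr2f1 stood at 2513, 2690 and 3355 in wild types and at 3299, 4003 and 2844 in knockouts (log2 fold change 0.24, interval -0.17 to 0.66), and the groups overlapped.

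The germline libraries also differed in other tissue markers. The neuron list, with 0 of 16 genes past the thresholds, summed to 66115, 62870 and 53092 in wild types and to 29349, 110685 and 35751 in knockouts, the same order among knockouts as for all factors but Nr2f1 and Nr2f2. Map2, its most abundant gene, stood at 14320, 13910 and 12944 against 7598, 22922 and 8982. The cranial mesenchyme list (0 of 14 past the thresholds) ran the other way, at 7418, 5304 and 9400 against 23171, 602 and 11698, and its most abundant gene, the collagen Col3a1, was at 2387, 1838 and 4037 against 8253, 2.46 and 4489. Its marker Twist1 was at 0.66 in knockout replicate 2. The diencephalon list (0 of 9 tested genes past the thresholds) summed to 437, 1100 and 1165 in the wild types and to 5091, 857 and 1218 in the knockouts, with Tcf7l2, its most abundant gene, at 3212 in knockout replicate 1 and at 638 or less elsewhere. The ventral telencephalon list (0 of 17 past the thresholds) summed to 6072, 8666 and 8997 in wild types and to 8251, 8726.5 and 7191 in knockouts. Of the hypoxia and glycolysis list, 16 of 18 genes passed both thresholds, all higher. That list summed to 21171, 22314 and 22387 in wild types and to 76009, 103753 and 26368 in knockouts. The endothelium sums were 2144, 1604 and 3163 against 3549, 833 and 2579, and 0 of 10 genes passed. The surface ectoderm list, of which 1 of 6 tested genes passed (Krt5, higher), summed to 105, 172 and 206 against 620, 122 and 357. The Y-linked genes summed to 1714, 9.80 and 4582 in the wild types and to 4.50, 0 and 1376 in the knockouts. With their mean level as a covariate, Lhx2 was at -0.37 and Nr2f2 at 0.52. Without knockout replicate 2, where 8.77% of all genes passed both thresholds, 13 of 16 neuron genes passed (all lower), 13 of 14 cranial mesenchyme genes (all higher), 6 of 9 diencephalon genes (all higher), 6 of 7 surface ectoderm genes (all higher), 14 of 18 hypoxia and glycolysis genes (all higher), 1 of 10 endothelium genes (higher) and 1 of 17 ventral telencephalon genes (higher). The part of tissue composition or hypoxia in the spread of the 9 factors was not tested.

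**Figure D4:**
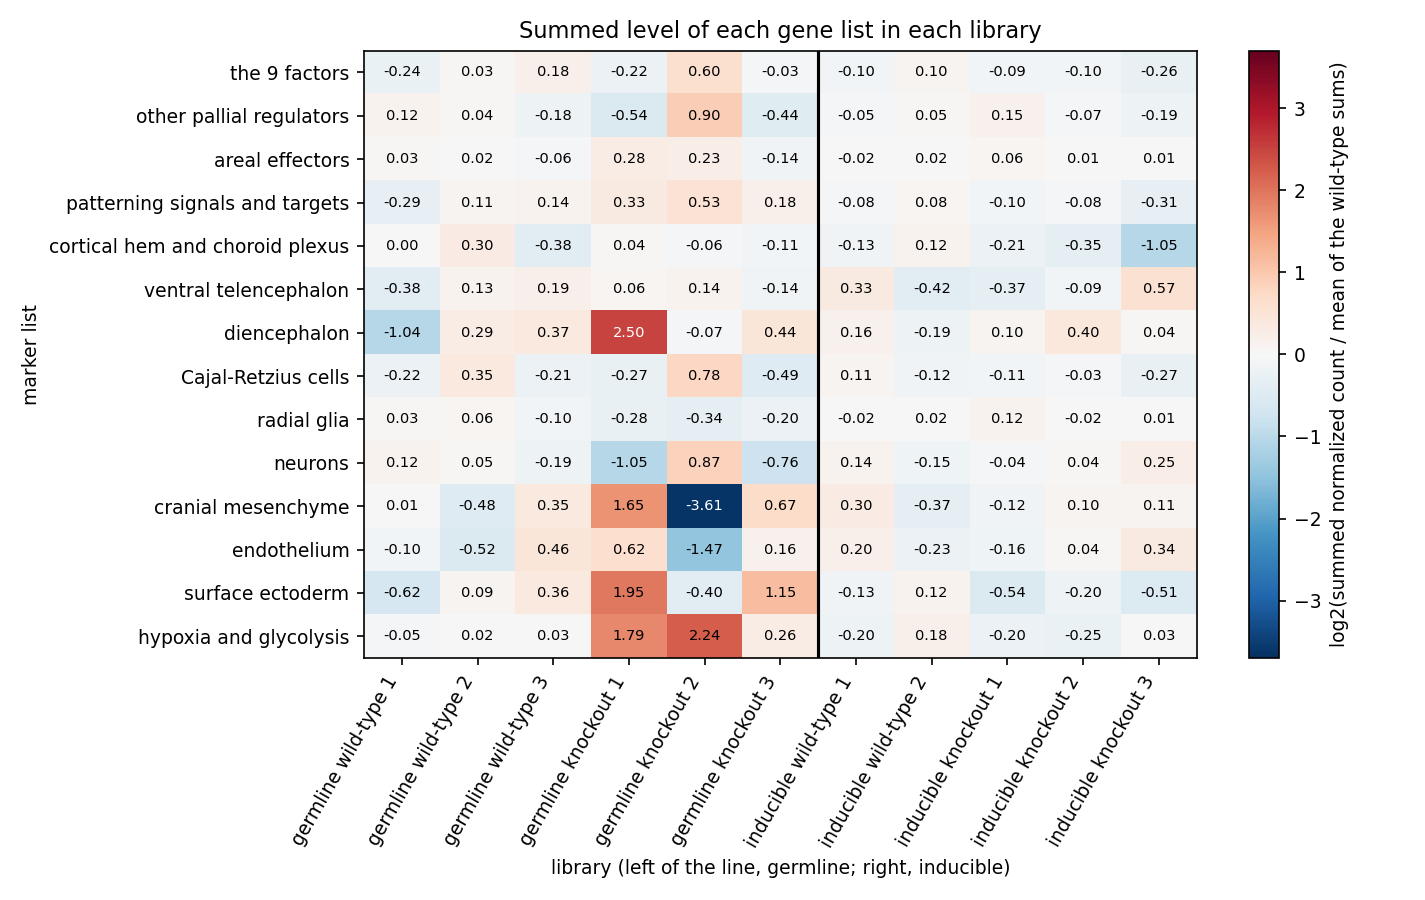
Summed normalized counts of the 9 factors and of 13 other gene lists in each library, as log2 of the ratio to the mean of the wild-type sums of the table. In germline knockout replicate 2 hypoxia and glycolysis is highest, the 9 factors, other pallial regulators, Cajal-Retzius cells and neurons are also high, and cranial mesenchyme and endothelium are low, and in inducible knockout replicate 3 the hem and choroid plexus list is low and the ventral telencephalon list high.

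Genes that act with the 9 factors were read from lists. Of 16 paralogs, 14 were tested in each table and 0 passed both thresholds in either (median log2 fold change 0.04 germline and -0.10 inducible). Dmrta1 was at 484, 565 and 817 against 321, 274 and 810 in the germline and at 1245 and 1713 against 1634, 1230 and 1056 in the inducible table. Among 23 other pallial regulators 0 passed in either comparison (medians 0.13 and -0.08). Without germline knockout replicate 2, 2 of 14 paralogs passed (both higher) and 8 of 23 other pallial regulators (7 lower and 1 higher). Among the areal effectors, genes such as ephrin receptors and cadherins that differ between areas, 0 of 16 passed in either comparison (medians -0.00485 and 0.11), and 4 of 16 without germline knockout replicate 2 (2 lower and 2 higher). Their most abundant gene, the teneurin Tenm3, was at 1341, 2639 and 2379 against 4113, 2628 and 2391 in the germline and at 5853 and 5999 against 5860, 5268 and 4950 in the inducible table.

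Patterning signals and their targets gave 2 of 25 genes past the thresholds in each comparison. In the germline these were Wnt8b, a Wnt of the medial wall and hem (504, 774 and 1224 against 1236, 1434 and 1769, log2 fold change 0.90), and Bmp6, a BMP of the dorsal midline (47.1, 52.9 and 75.3 against 107, 109.7 and 76.4, log2 fold change 0.74), both higher. Without knockout replicate 2 again 2 of 25 passed, Wnt8b (0.92, limma P 0.0228) and Bmp4 (1.36, limma P 0.00963), both higher, and Bmp6 did not (0.65, limma P 0.0618). In the inducible comparison Bmp6 was lower (170.4 and 218 against 101, 128 and 90.5, log2 fold change -0.87) and Fgf15, an FGF of forebrain progenitors, higher (1743 and 1295 against 2119, 2575 and 2143, log2 fold change 0.59). Wnt8b in that table was at 2614 and 2950 against 2389, 2121 and 1214 (log2 fold change -0.60, unadjusted limma P 0.0509). The adjusted p was 0.779 for both germline genes, and 0.656 and 0.669 for Bmp6 and Fgf15 in the inducible comparison. The inducible rows of Bmp6, Fgf15 and Wnt8b are among those written to 2 decimals. Fgf8, of the anterior center, was at 16.5, 25.8 and 102 against 138, 15.1 and 65.3 in the germline and at 89.5 and 159 against 73.7, 64.1 and 133 in the inducible table. Fgf8 groups overlapped in both.

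Of the hem and choroid plexus list, 5 of 14 genes passed in the germline: Rspo1, Rspo2, Rspo3 and Msx2 were higher and Ttr lower. Without knockout replicate 2, 7 of 14 passed, and Rspo3 (0.42, limma P 0.0752) did not. Rspo2, a Wnt enhancer of the hem, stood at 368, 618 and 810.3 against 1030.4, 1569 and 973, and every knockout was above every wild type. Ttr stood at 4709.6, 4949.5 and 1146 against 569, 713 and 1663, with wild-type replicate 3 below knockout replicate 3. The list summed to 8150.1, 10004 and 6224 in wild types and to 8360.1, 7803 and 7545 in knockouts, so the groups overlapped. Of the radial glia list 2 of 12 passed in the germline, the lipid-binding protein Fabp7 and the cyclin Ccnd2, both lower (Ccnd2 at 35206, 32666 and 22332 against 13383, 13788 and 20528), and 0 of 12 passed in the inducible comparison. Both also passed without germline knockout replicate 2. Cajal-Retzius cell genes gave 0 of 10 in either comparison, and 2 of 10 (both lower) without that library. Their germline sums were 8317, 12297 and 8375 against 8033, 16586 and 6887, highest in knockout replicate 2.

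Ratios of factors within a library do not depend on the scaling of that library. Knockouts and wild types were fully separated in 6 of the 36 possible pairs of factors in the germline (16.7%) and in 8 of 36 in the inducible table (22.2%), beside 12.6% and 23.1% of the pairs among all genes tested in both tables. Of the 20 ways to split the germline libraries 2 separate any 6 distinct values completely, and of the 10 ways to split the inducible libraries also 2. Separation in both tables with opposite directions was found for 2 of the 36 pairs, which share Lhx2, and for 2.14% of all gene pairs. Described here, besides Lhx2 to Dmrta2, are 5 ratios chosen after the data were seen. Of the 10 readings of these 5 ratios, 3 did not overlap. Dmrt3 to Lhx2, a medial factor against the pan-cortical selector, was 0.0681, 0.0807 and 0.0856 in the germline wild types and 0.132, 0.0966 and 0.106 in the germline knockouts. Every germline knockout was above every wild type. In the inducible table it was 0.0965 and 0.101 in wild types and 0.0787, 0.0823 and 0.0736 in knockouts, all lower. On the log2 scale the ratio differed by 0.51 (germline) and -0.34 (inducible). Over the leave-one-out fits it lay between 0.38 and 0.61 (germline) and between -0.38 and -0.30 (inducible). Lhx2 to Dmrta2 was also fully separated in both tables, at -0.45 (germline) and 0.26 (inducible). Nr2f2 to Nr2f1 was 0.666, 1.00 and 1.10 in the germline wild types and 1.22, 1.18 and 1.13 in the knockouts, higher in all of them (log2 difference 0.38). Over the leave-one-out fits it lay between 0.16, without wild-type replicate 1, and 0.52. In the inducible table it was 0.971 and 0.787 against 0.709, 0.843 and 0.866, the groups overlapped, and the leave-one-out fits gave -0.27 to 0.03. Nr2f1 to Sp8, a caudal against an anterior factor, was 7.09, 5.81 and 6.75 against 9.73, 7.23 and 5.47 in the germline and 4.21 and 4.31 against 4.13, 6.93 and 6.45 in the inducible table, with overlap in both. Nr2f1 to Emx2 and Dmrt3 to Dmrta2 overlapped in both tables as well.

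The genes most like each factor across the 11 libraries, centred on the mean of each table, were read from 13741 genes tested in both tables, as a description, since the libraries share tissue and group. Emx2 was closest to Dmrt3 (Pearson's r = 0.941), Tle1 (0.939) and Sp8 (0.919), Dmrt3 to Emx2, Ccno (0.935) and the hem signal Wnt3a (0.933), and Sp8 to Wrap53 (0.937), Emx2 and Sirt6 (0.913). Dmrta2 was closest to Galnt16 (0.952) and Ccno (0.943). Emx1 was closest to Fezf2, a regulator of deep-layer projection neurons (0.975), Kat6b (0.967) and Nckap5 (0.964), and Tfap2c to Bai2 (0.966), Kat6b (0.964) and Pisd (0.964). Lhx2 was closest to Kcna3 (0.957), Sall1 (0.953) and Ttyh3 (0.949), Nr2f1 to Ofd1 (0.937), Snx30 (0.904) and Htra2 (0.895), and Nr2f2 to Dpf2 (0.965), Amt (0.937) and Atp8b2 (0.934). Without germline knockout replicate 2 the values for the first gene of Emx1, Tfap2c and Emx2 were 0.951, 0.891 and 0.925. Between the factors themselves, Emx1 and Tfap2c had the highest r (0.95), close to the 0.941 of Emx2 and Dmrt3. In germline knockout replicate 2, Emx1 and Tfap2c stood 1.35 and 1.32 above the wild-type mean in log2. Their r without that library was not computed. Dmrta2 had 0.911 with Dmrt3, 0.876 with Emx2 and 0.862 with Sp8, and Dmrt3 had 0.862 with Sp8. Nr2f1 and Nr2f2 had r = 0.865 with each other and 0.41 at most with any of the other 7.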

How the data were processed

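RNA from E12.5 forebrain of 11 libraries was sequenced by the authors as poly(A) TruSeq libraries on the HiSeq2000. Per the labels and the study's methods, reads were aligned to mm9 with TopHat (version 1.2.0 in the processing notes, a later version in the methods), counted over RefSeq exons and TMM-normalized in edgeR. The deposited signal values are these normalized counts, not divided by gene length, for each table separately. Raw counts were not used here, so depth per library is known only as normalized totals. In R 4.3.3, limma 3.58.1 (trend, two-sided) was fitted within each table on log2(value + 1) for genes with a mean of at least 10, after tests on simulated data. Alternatives covered pseudocount, filter, quantile normalization, array weights, a Y-linked covariate and left-out libraries. Figures were drawn with matplotlib 3.10.9. The genes named are the 9 members, Kif20a, some list genes past both thresholds (not the hypoxia genes), the most abundant gene of some lists and the 3 genes most like each member, of which 1 is not reported here. Other genes named (such as Lmx1a, Nkx2-1, Twist1, Dmrta1, Wnt3a and Fgf8) were chosen after their values were seen. Members and lists were chosen with earlier results of these data known. The study calls the embryos of each comparison littermates, but the embryos per library and the litter of each library are not given in the sources used here, so p-values measure the spread between these samples.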

Additional observations from a re-analysis of the deposited data

Results flagged for a closer look

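The log2 ratio of Dmrt3 to Lhx2 within a library, knockout minus wild type, was 0.51 in the germline and -0.34 in the inducible table, and in each table all knockouts lay on 1 side of all wild types. Lhx2 to Dmrta2 was separated in both tables as well (-0.45 and 0.26), and of all 36 pairs of factors 16.7% were separated in the germline and 22.2% in the inducible table, beside 12.6% and 23.1% of the pairs among all genes tested in both. Separation in both tables with opposite directions was found for 2 of the 36 pairs and 2.14% of all gene pairs. The log2 ratio of Nr2f2 to Nr2f1 was 0.38 in the germline, with every knockout above every wild type (0.16 to 0.52 over the leave-one-out fits), and -0.12 in the inducible table (-0.27 to 0.03), where the groups overlapped. The difference between the tables was not tested for either ratio.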

How the results depend on the processing

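Across pseudocounts, filters, quantile normalization, array weights, the replicate block and left-out libraries, with a covariate and knockout replicate 3 alone in the germline and 2-decimal values left out in the inducible table, 111 germline log2 fold changes of the factors kept direction and side of the thresholds, 21 changed sign and 3 came to pass, and of the inducible values 111 kept both, 4 changed sign and 2 came to pass. The cause was not tested. With limma array weights the germline calls numbered 1044, with 1 factor, and Emx1 was at -0.43, Emx2 -0.29, Sp8 -0.16, Dmrta2 -0.26, Dmrt3 -0.11 and Tfap2c -0.42, while inducible Nr2f2 was at 0.0747. With Y-linked genes as covariate 177 germline genes passed, Emx1 was at -0.0467 and Tfap2c at -0.0455. With knockout replicate 3 alone, chosen after seeing the data, Emx1 was at -0.15 and Tfap2c at -0.22. In that fit 6 factors were positive. Inducible calls numbered 357 with no filter, 72 with a mean of at least 50, and 99 without the 2-decimal values, an alternative also chosen after seeing the data. If the 2-decimal rows are the study's own calls, leaving them out lowers the count by selection. That count then does not measure a dependence on the processing. Leaving out each library in turn gave 157 to 1229 germline and 126 to 322 inducible calls, with 0 to 1 factor in either. The germline log2 fold changes then ran from -0.54 to 0.60 for Emx1, -0.18 to 0.23 for Emx2, -0.64 to 0.00577 for Lhx2, -0.0594 to 0.31 for Sp8, -0.20 to 0.49 for Dmrta2, -0.0357 to 0.39 for Dmrt3 and -0.47 to 0.55 for Tfap2c. Inducible values ran from -0.0324 to 0.21 for Nr2f1, -0.15 to 0.17 for Nr2f2 and -0.47 to 0.0623 for Tfap2c.

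With the replicate block, 376 germline and 163 inducible genes passed, with 0 factors in either. Same-numbered libraries deviated from their group means with correlations of -0.116, 0.306 and 0.247 in the germline and -0.352 and -0.0513 in the inducible table. Differently numbered libraries gave -0.357 to 0.334 in the germline and -0.31 to 0.352 in the inducible table. With so few libraries per group the deviations are tied to each other, so these values cannot tell whether the numbers pair the samples. The block left Dmrta2 (limma P 0.0263) and Dmrt3 (limma P 0.0488) under a P of 0.05 in the inducible table, and Emx2 (limma P 0.142) and Sp8 (limma P 0.0923) above it. Inducible knockout replicate 3 has no wild type of its number, so the block sets it aside. The log2 fold changes equal those without that library (Dmrta2 -0.29, Dmrt3 -0.31, Emx2 -0.24 and Sp8 -0.30).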
